A study of Mus musculus with 12 samples.

Results

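The miR-29 family of the mouse comes from 4 precursor hairpins, mmu-mir-29a, mmu-mir-29b-1, mmu-mir-29b-2 and mmu-mir-29c, and its reads were followed in small RNA libraries from the retina of diabetic mice. The 4 precursors were chosen by name, out of 1532 precursors with reads in the libraries, of which 997 were annotated. They gave 7 mature arms: 3 from the 3p side, where the copies of miR-29b yield the same RNA, and 4 from the 5p side.

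Small RNA of 12 retinal samples was sequenced to ask how the miRNA profile of db/db mice differs with Keluoxin. Such mice have a defective leptin receptor and develop obesity with diabetes. There were 6 db/db samples given Keluoxin, a Chinese herbal medicine, and they were set against 6 db/db samples labelled model, taken here as mice without Keluoxin. All 12 samples carry the db/db genotype. Their strain labels run from C57BL/KsJ-db/db to C68BL/KsJ-db/db, a different number before BL in each sample, and that number was left aside. No non-diabetic retina was analysed here, so a value cannot be placed against a healthy level. The labels give no dose, duration or age. The source label is the retina, although an exosome pellet is named in the extraction protocol. Nothing in the labels ties each sample to its own mouse. The p-values below therefore cover only sample-to-sample spread, part of which may be technical. Collagen mRNAs were not measured.

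miRNAs of the miR-29 family repress mRNAs of collagens, elastin, fibrillin and other proteins of the extracellular matrix. They recognise these targets mainly through the seed, bases 2 to 8 of the miRNA, and the 3p arm is the one mostly loaded into the silencing complex. TGF-beta signalling lowers miR-29 in several fibrotic tissues, and the basement membrane of retinal vessels, rich in collagen, is known to thicken in diabetes.

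The mature sequences are shown because the comparison between members rests on very few bases. They are RefSeq sequences on GRCm38.p6, 5′ to 3′, with the seed in capitals.
miR-29a-3p: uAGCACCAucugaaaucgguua
miR-29b-3p: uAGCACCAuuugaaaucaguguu
miR-29c-3p: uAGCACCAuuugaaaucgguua
miR-29a-5p: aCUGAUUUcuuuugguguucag
miR-29b-1-5p: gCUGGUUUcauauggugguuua
miR-29b-2-5p: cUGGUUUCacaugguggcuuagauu
miR-29c-5p: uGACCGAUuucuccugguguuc

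The 3p arms share the seed AGCACCA, which 3 of the 1679 mature mouse miRNAs in the RefSeq table carry, all of them miR-29. Counted from the 5′ end, miR-29a-3p and miR-29c-3p differ by a single base, C10U. miR-29c-3p differs from miR-29b-3p by G18A, U21G and A22U, and miR-29b-3p is 23 nt long where miR-29a-3p and miR-29c-3p are 22. A miR-29a-3p read in which base 10 was read as T therefore counts as miR-29c-3p. On the 5p side no seed is shared: the seeds of miR-29a-5p and miR-29c-5p, and CUGGUUU of miR-29b-1-5p, were each found in 1 mature miRNA of the table.

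The hairpins lie in 2 clusters. On chromosome 6, minus strand, mir-29a (chr6:31062660-31062747) and mir-29b-1 (chr6:31063023-31063093) are 275 bases apart, with their 3p arms at chr6:31062673-31062694 and chr6:31063025-31063047. The mir-29a hairpin overlaps no other annotated gene, and mir-29b-1 overlaps 2 bases of an exon of the long non-coding RNA Gm27019. On chromosome 1, plus strand, mir-29b-2 (chr1:195037040-195037120) and mir-29c (chr1:195037547-195037634) are 426 bases apart, with 3p arms at chr1:195037091-195037113 and chr1:195037600-195037621. Both lie whole in an exon of the non-coding gene A330023F24Rik on the same strand, and opposite an exon of Cd46, which encodes a complement regulator.

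Depth ran from 1933375 counted reads in Keluoxin replicate 5 up to 7892147 in model replicate 3. Family reads made up 1.02% to 1.69% of the counted reads in Keluoxin libraries and 0.793% to 0.971% in model libraries. This is a share of all counted reads, a scaling under which all arms had a median log2 fold change of 0.22 themselves. In reads this was 19700 to 97968 in Keluoxin libraries and 33710 to 76622 in model libraries. Across all miRNAs, 50.3% ± 2.49 of reads matched their precursor without a mismatch in Keluoxin libraries and 58.4% ± 1.95 in model libraries (SD, n = 6 each). Precursors predicted by the submitters took 7.04% ± 1.62 of the reads in Keluoxin and 4.95% ± 1.74 in model libraries, and the groups overlapped.

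The 3p arms held nearly all family reads. Over the 12 libraries miR-29a-3p had 565681 reads, miR-29b-3p 50954 and miR-29c-3p 36914, whereas the 5p arms had 6548 (miR-29c-5p), 735 (miR-29b-2-5p), 485 (miR-29a-5p) and 31 (miR-29b-1-5p). miR-29a-3p made up 86.5% ± 1.20 of the 3p reads in Keluoxin libraries and 86.5% ± 0.777 in model libraries. miR-29b-3p made up 7.48% ± 0.686 in Keluoxin and 8.37% ± 0.509 in model libraries. miR-29c-3p made up 5.98% ± 0.811 in Keluoxin and 5.14% ± 0.468 in model libraries. Both of these shares overlapped between the groups.

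Of the 6 arms deep enough to be tested, 2 were higher in Keluoxin retina, the 3p arms of mmu-mir-29a and mmu-mir-29c, and 0 were lower. The test was edgeR's quasi-likelihood test with Benjamini-Hochberg adjustment over 811 arms, at an adjusted p under 0.05. At an unadjusted p under 0.05 the counts were again 2 higher and 0 lower, and DESeq2 called 2 higher and 0 lower. Of all arms 9.25% were called higher and 8.01% lower (17.3% in either direction). Of the 511 annotated arms 4.11% were called higher and 9.59% lower (13.7% in either direction). The groups overlapped for each miR-29 arm, whereas they were separate for 1.96% of annotated arms in the higher and 4.7% in the lower direction. The median log2 fold change, Keluoxin over model, was 0.08 for the 6 miR-29 arms, 0.03 for all arms and -0.12 for annotated arms.

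miR-29a-3p, the most abundant member, ran from 8866 through a median of 9941 to 11027 CPM in Keluoxin libraries, and from 6921 through a median of 7912 to 8918 CPM in model libraries. CPM here are counts scaled to the normalized library size. A single pair of libraries made the groups overlap, since Keluoxin replicate 5, the shallowest library, lay just below model replicate 3, the deepest. The means were 9865 ± 757 CPM in Keluoxin and 7938 ± 838 CPM in model (SD, n = 6 each), a 1.24-fold level with a log2 fold change of 0.31 (SE 0.09, 95% interval 0.12 to 0.50, edgeR adjusted p = 0.0314). In retina as a bulk tissue, a change in the number of cells that hold an RNA and a change in its level per cell cannot be told apart.

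miR-29c-3p, made from the chromosome 1 cluster, had the larger estimate. Its Keluoxin libraries ran from 526 through a median of 665 to 912 CPM, and its model libraries from 369 through a median of 472 to 547 CPM. All Keluoxin libraries but replicate 3 lay above every model library. The means were 687 ± 147 CPM in Keluoxin and 472 ± 60.8 CPM in model retina, a 1.46-fold level with a log2 fold change of 0.54 (SE 0.15, 95% interval 0.22 to 0.87, edgeR adjusted p = 0.0302).

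miR-29b-3p, the product of both clusters, did not pass the test. It ran from 677 through a median of 875 to 936 CPM in Keluoxin libraries and from 700 through a median of 749 to 910 CPM in model libraries. The lowest of all 12 values was Keluoxin replicate 3, and model replicate 5 reached the upper Keluoxin values. The log2 fold change was 0.15 (SE 0.10, 95% interval -0.07 to 0.38, adjusted p = 0.291, edgeR), an interval that includes the estimate for miR-29a-3p.

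The 5p arms, the passenger strands, gave no call. miR-29c-5p ran from 81.8 through a median of 98.9 to 123 CPM in Keluoxin libraries and from 76.4 through a median of 114 to 142 CPM in model libraries, with a log2 fold change of -0.20 (SE 0.17, 95% interval -0.57 to 0.16, adjusted p = 0.382, edgeR). The highest and lowest values were both in model libraries. miR-29b-2-5p averaged 11.04 ± 2.03 CPM in Keluoxin and 13.0 ± 4.29 CPM in model libraries, with a log2 fold change of -0.24 (SE 0.23, edgeR adjusted p = 0.452). miR-29a-5p averaged 7.92 ± 3.30 CPM in Keluoxin and 7.93 ± 3.34 CPM in model libraries, with a log2 fold change of 0.00 (SE 0.34, edgeR adjusted p = 0.996). These intervals are wide, from -0.73 to 0.74 for miR-29a-5p. miR-29b-1-5p was too shallow for the test, with 0 to 6 reads in Keluoxin libraries and 0 to 8 in model libraries. Sequences with a single read are not listed in the deposited tables, so a 0 there does not show absence.

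**Figure D1:**
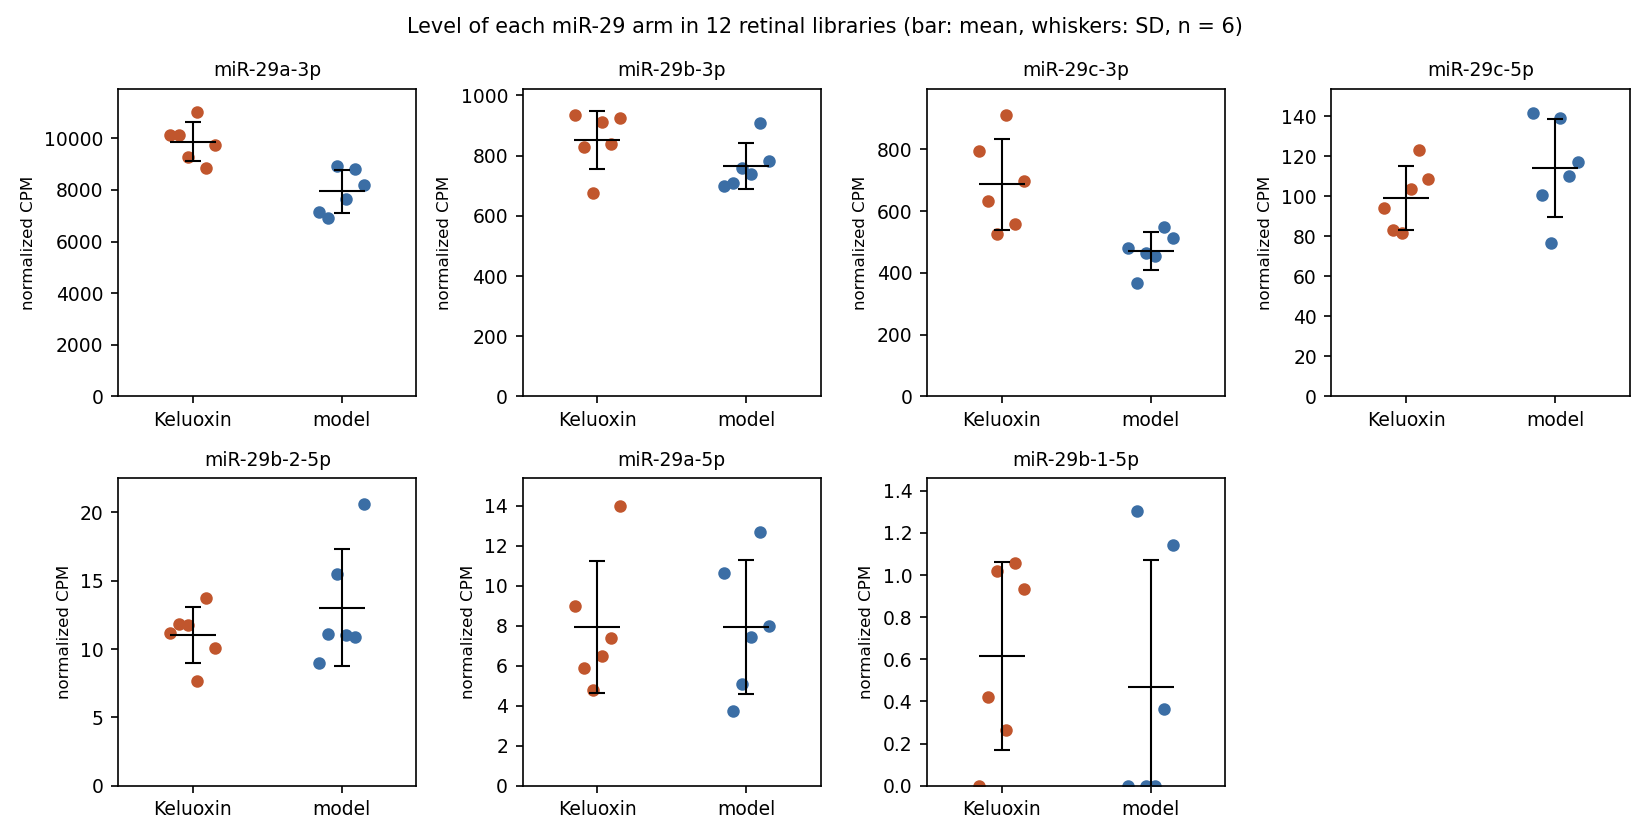
Level of each miR-29 arm (normalized CPM, linear axis from 0) in 6 Keluoxin and 6 model libraries; points are libraries, bars the mean and whiskers the SD, cut off at 0 for miR-29b-1-5p. The points of miR-29a-3p and miR-29c-3p sit higher in Keluoxin libraries with a small overlap, and the other arms overlap broadly.

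How the libraries were scaled decided the size of these changes and whether they were called. Scaling by upper quartile moved the median of all arms to a log2 fold change of -0.23, and scaling by total reads moved it to 0.22, against 0.03 as reported. miR-29a-3p then stood at 0.04 (edgeR adjusted p = 0.873) and 0.51 (edgeR adjusted p = 0.0198), and miR-29c-3p at 0.28 (edgeR adjusted p = 0.271) and 0.76 (edgeR adjusted p = 0.0283). With RLE, a further scaling, miR-29a-3p stood at 0.28 (edgeR adjusted p = 0.04445) and miR-29c-3p at 0.50 (edgeR adjusted p = 0.0321). Of the 4 scalings, only upper quartile left both arms without a call. A change of scaling shifts all arms nearly alike, so the distance of an arm from the median of all arms hardly depends on it. That distance cannot show whether a call is stable. miR-29a-3p lay 0.28 above this median as reported, 0.27 above with upper quartile and 0.29 above with total reads. For miR-29c-3p the distances were 0.51, 0.51 and 0.54. The median of annotated arms was lower, at -0.12 as reported, so the distance also depends on the arms chosen. The sign of miR-29b-3p flipped with upper quartile scaling, to -0.12. Relative to the median of all arms it lay between 0.11 and 0.14 above under all 4 scalings.

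Single libraries also decided the calls. With 1 library left out in turn, miR-29a-3p lay between 0.25 and 0.35 and passed in 7 of 12 fits (edgeR adjusted p from 0.0298 to 0.146), failing without Keluoxin replicates 1, 3 or 6 or model replicates 2 or 4. miR-29c-3p lay between 0.44 and 0.60 and passed in 7 of 12 (edgeR adjusted p from 0.0265 to 0.0690), failing without Keluoxin replicates 1 or 6 or model replicates 2, 3 or 4. Neither passed with the share of reads on predicted precursors as a covariate, an alternative added after the data were seen, at 0.36 (edgeR adjusted p = 0.0770) and 0.44 (edgeR adjusted p = 0.176). Neither passed without the filter on low counts, at 0.25 (edgeR adjusted p = 0.223) and 0.48 (edgeR adjusted p = 0.0997). The direction held in each of these fits.

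**Figure D2:**
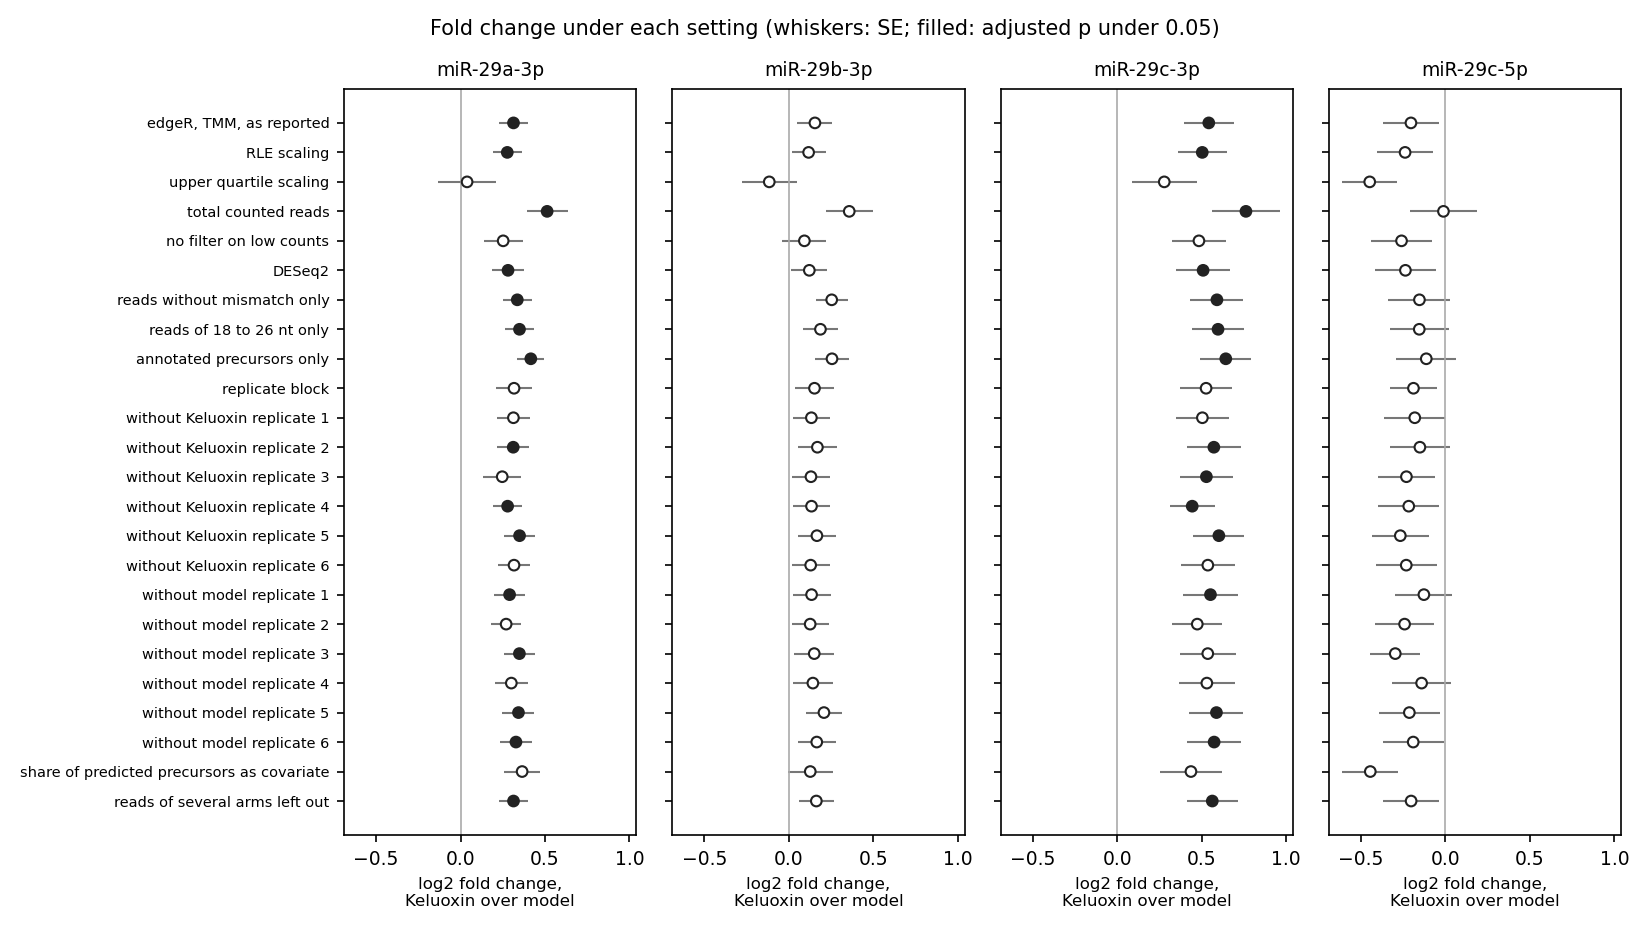
Log2 fold change, Keluoxin over model, of 4 miR-29 arms under each setting (rows), with the SE as whiskers; filled points have an adjusted p under 0.05. miR-29a-3p and miR-29c-3p stay right of 0 in every row and are filled in some rows only, and miR-29b-3p and miR-29c-5p are open throughout.

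Markers of other cells moved between the groups as well. The summed photoreceptor miRNAs (miR-182-5p, miR-183-5p and miR-96-5p, all 3 tested, 1 called, miR-182-5p lower) ranged from 187600 to 379500 CPM in Keluoxin libraries and from 353700 to 417500 CPM in model libraries. These miRNAs did not move alike. The log2 fold change was -0.61 for miR-182-5p (edgeR adjusted p = 0.0208) and -0.19 for miR-183-5p (edgeR adjusted p = 0.437). miR-96-5p went the other way, at 0.28 (edgeR adjusted p = 0.0540). The neuronal pair miR-124-3p and miR-9-5p (0 of 2 called by edgeR) ranged from 82730 to 116400 CPM in Keluoxin and from 109100 to 124000 CPM in model libraries. The endothelial miR-126a-3p, called lower, ranged from 910 to 1225 CPM in Keluoxin and from 1432 to 1921 CPM in model libraries. The photoreceptor and neuronal markers of a retina were abundant in each library. The mural pair miR-143-3p and miR-145a-5p (0 of 2 called) ranged from 3218 to 6899 CPM in Keluoxin and from 2447 to 4135 CPM in model libraries. For the pigment epithelium pair miR-204-5p and miR-211-5p (0 of 2 called) the range was 10210 to 12060 CPM in Keluoxin and 9347 to 12030 CPM in model libraries. Erythroid miRNAs (1 of 2 called, higher) ranged from 51.5 to 718 CPM in Keluoxin and from 53.2 to 71.2 CPM in model libraries. The liver miRNA miR-122-5p (called higher) ranged from 2.38 to 41.2 CPM in Keluoxin and from 1.18 to 4.89 CPM in model libraries. Keluoxin replicate 1, at 51.5 CPM, did not exceed the model libraries in the erythroid sum, nor did Keluoxin replicate 4, at 2.38 CPM, for miR-122-5p. All other Keluoxin libraries lay above every model library in these values. The called erythroid arm, miR-451a-5p, was at the model level in Keluoxin replicates 1 and 2, at 24.8 and 35.0 CPM. Leukocyte miRNAs (1 of 3 tested, 0 called) ranged from 51.0 to 72.2 CPM in Keluoxin and from 54.0 to 74.2 CPM in model libraries. Muscle miRNAs (0 of 3 called) ranged from 282 to 1889 CPM in Keluoxin and from 296 to 425 CPM in model libraries. The library at 1889 CPM was Keluoxin replicate 4, which also had the lowest photoreceptor sum and the highest miR-29a-3p and miR-29c-3p. Without it the log2 fold changes were 0.28 for miR-29a-3p and 0.44 for miR-29c-3p, each with an edgeR adjusted p of 0.0462. The part of the other marker shifts in these results was not tested.

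Ratios of reads within a library do not depend on the scaling between libraries. For each 100 miR-29a-3p reads, miR-29c-3p had 5.67 to 8.27 reads in Keluoxin libraries (median 6.74) and 5.20 to 6.71 in model libraries (median 6.10). The log2 ratio differed by 0.21 between the groups, which did not pass (exact permutation test, p = 0.0714, adjusted p = 0.107 over 15 measures per library). For miR-29b-3p the counts were 7.30 to 9.49 in Keluoxin and 8.51 to 10.3 in model libraries for each 100 miR-29a-3p reads, a log2 difference of -0.17 that did not pass after adjustment either (exact permutation test, p = 0.0433, adjusted p = 0.0722). The 1.46-fold and 1.24-fold levels of miR-29c-3p and miR-29a-3p were therefore not shown to differ from each other.

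C-to-T mismatches were measured at the other C bases of miR-29a-3p, where no member has a T, since at base 10 such a read counts as miR-29c-3p. Over those bases they averaged 0.138 ± 0.0207 for every 100 miR-29a-3p reads in Keluoxin libraries and 0.216 ± 0.0386 in model libraries. The mean was carried by base 17, at 0.271 ± 0.0550 in Keluoxin and 0.503 ± 0.122 in model libraries, while base 6 stood at 0.0789 ± 0.0152 in Keluoxin and 0.0992 ± 0.0211 in model libraries. miR-29c-3p was present at 6.91 ± 1.02 reads in Keluoxin and 5.95 ± 0.582 reads in model libraries for each 100 of miR-29a-3p. The part of such mismatches in the miR-29c-3p level was not tested.

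The balance of arms changed within mir-29c. For each 100 miR-29c-3p reads, Keluoxin libraries held from 11.4 through a median of 14.4 to 22.03 miR-29c-5p reads, and model libraries from 16.5 through a median of 25.0 to 30.5. The groups overlapped because Keluoxin replicate 5, at 22.03, lay above model replicates 3 and 5. The log2 ratio of 5p to 3p was 0.71 lower in Keluoxin retina (difference -0.71, exact permutation test, p = 0.0108), with an adjusted p of 0.0465 over the 86 annotated precursors with at least 10 reads on each arm in every library (exact permutation test). Of those 86 precursors 9.3% passed in the lower and 14% in the higher direction, so a shift of this kind was not rare. With 1 library left out the difference ran from -0.83 to -0.64. Over the 15 measures it passed in 8 of 12 such tests (exact permutation tests, adjusted p from 0.0217 to 0.0649), failing without Keluoxin replicates 1, 3 or 6 or model replicate 2. With exact reads only it was -0.70 and did not pass (exact permutation test, adjusted p = 0.0571).

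In mir-29a and mir-29b the same ratio did not pass. miR-29a-5p had 0.0806 ± 0.0342 reads for each 100 miR-29a-3p reads in Keluoxin and 0.0998 ± 0.0407 in model libraries (log2 difference -0.29, exact permutation test, p = 0.329, adjusted p = 0.505 over 86 precursors). The 5p arms of both miR-29b copies had 1.39 ± 0.378 reads in Keluoxin and 1.77 ± 0.580 reads in model libraries for each 100 miR-29b-3p reads (log2 difference -0.33, exact permutation test, p = 0.203, adjusted p = 0.235 over 15 measures). Whether the ratio of mir-29c moved more than those of mir-29a and mir-29b was not tested.

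The copies of miR-29b can be told apart only on the 5p side. There the 5p arm of the chromosome 1 copy led, with 735 reads of miR-29b-2-5p and 31 of miR-29b-1-5p in all. The log2 ratio of these arms averaged 4.33 ± 1.33 in Keluoxin and 5.46 ± 1.88 in model libraries and did not pass (exact permutation test, p = 0.255, adjusted p = 0.274 over 15 measures). It rests on 0 to 8 miR-29b-1-5p reads in a library. Reads of the 5p arms do not show which copy supplies more miR-29b-3p.

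**Figure D3:**
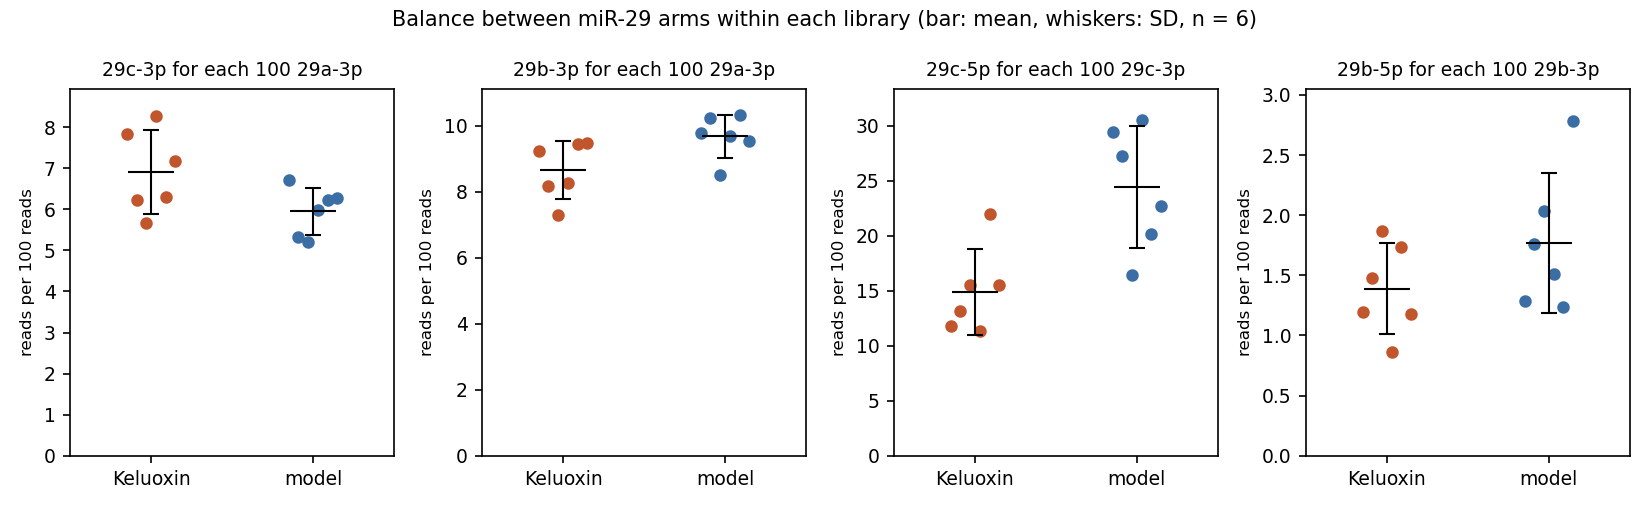
Reads of a miR-29 arm for each 100 reads of another arm in the same library, for 6 Keluoxin and 6 model libraries; points are libraries, bars the mean and whiskers the SD. miR-29c-5p for each 100 miR-29c-3p is lower in Keluoxin libraries, at 14.9 ± 3.91 against 24.4 ± 5.57 in model libraries.

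The reads behind the 3p arms were mostly shorter than the RefSeq sequence, or began 1 base before it. The commonest reads of each arm are shown as sequenced, with T for U and bases 2 to 8 of the read in capitals, because the starting base sets the seed. The base in front of the annotated start is C in all 4 hairpins.
miR-29a-3p, most frequent read: tAGCACCAtctgaaatcggtt
miR-29a-3p, early start: cTAGCACCatctgaaatcggtt
miR-29b-3p, most frequent read: tAGCACCAtttgaaatcagt
miR-29b-3p, early start: cTAGCACCatttgaaatcagt
miR-29c-3p, most frequent read: tAGCACCAtttgaaatcggtt
miR-29c-3p, next most frequent read: tAGCACCAtttgaaatcggt

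The leading read held 29.9% of all miR-29a-3p reads, 19.6% of miR-29b-3p reads and 30.8% of miR-29c-3p reads. The early reads printed were the runners-up of their arms, with 8.76% of miR-29a-3p and 14.2% of miR-29b-3p reads, while no early read was among the 3 commonest of miR-29c-3p. The next in rank were tAGCACCAtctgaaatcggtta for miR-29a-3p (8.08%), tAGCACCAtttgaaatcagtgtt for miR-29b-3p (8.66%) and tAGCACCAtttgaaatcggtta for miR-29c-3p (8.53%), which are the whole annotated sequences. The read of miR-29c-3p that is a base shorter than its leading one held 9.14%.

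An early start was much commoner in miR-29b-3p and miR-29a-3p than in miR-29c-3p. Such reads made up 31.0% ± 2.65 of miR-29b-3p in Keluoxin and 32.8% ± 2.00 in model libraries. For miR-29a-3p they made up 18.1% ± 1.66 in Keluoxin and 19.5% ± 2.12 in model libraries, and for miR-29c-3p 1.88% ± 0.489 in Keluoxin and 2.53% ± 0.767 in model libraries. The ranges of the 3 arms did not overlap over the 12 libraries. Bases 2 to 8 of these reads are UAGCACC, a seed that 0 of the 1679 mature miRNAs in the RefSeq table carry.

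The share at the annotated start, which is also the most frequent one, did not differ past the threshold for any 3p arm. It was 81.9% ± 1.63 in Keluoxin and 80.3% ± 2.08 in model libraries for miR-29a-3p (exact permutation test, adjusted p = 0.235 over 15 measures). It was 69.0% ± 2.64 in Keluoxin and 67.0% ± 2.04 in model libraries for miR-29b-3p (exact permutation test, adjusted p = 0.224). For miR-29c-3p it was 97.9% ± 0.573 in Keluoxin and 96.4% ± 1.26 in model libraries (exact permutation test, p = 0.0281, adjusted p = 0.0528).

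At the 3′ end the arms ended in different places. Of miR-29a-3p reads, 69.7% ± 1.70 in Keluoxin and 58.1% ± 4.07 in model libraries ended 1 base before the annotated end. Another 5.13% ± 1.46 in Keluoxin and 12.03% ± 3.57 in model libraries ended 3 bases before it. miR-29c-3p had 57.0% ± 3.54 in Keluoxin and 44.9% ± 5.44 in model libraries ending 1 base early and 6.197% ± 1.78 in Keluoxin and 12.6% ± 4.20 in model libraries ending 3 bases early. miR-29b-3p had its main end 3 bases before the annotated one, with 48.4% ± 4.49 in Keluoxin and 50.3% ± 2.32 in model libraries, and reached the annotated end in 16.5% ± 3.16 in Keluoxin and 12.5% ± 2.22 in model libraries. The share of miR-29c-3p reads ending 1 base early overlapped between the groups, at 50.1% to 59.6% in Keluoxin and 37.8% to 53.5% in model libraries. For miR-29a-3p the share ending 3 bases early overlapped too, at 3.87% to 7.34% in Keluoxin and 6.66% to 16.55% in model libraries. So did that share of miR-29c-3p, at 4.68% to 9.66% in Keluoxin and 7.16% to 17.3% in model libraries. Of the shares given here, only those of miR-29a-3p 1 base early and at the annotated end were separate. These end positions come from the deposited alignments, which allow a mismatch in the last bases, and they were not tested singly. The ends of other miRNAs were not measured, so the shifts are not shown to be particular to miR-29.

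The mean length of the reads moved by a fraction of a base. It was 21.08 ± 0.0536 nt in Keluoxin and 20.93 ± 0.112 nt in model libraries for miR-29a-3p, 21.17 ± 0.144 nt in Keluoxin and 20.94 ± 0.133 nt in model libraries for miR-29b-3p, and 20.83 ± 0.0753 nt in Keluoxin and 20.60 ± 0.173 nt in model libraries for miR-29c-3p. The differences of 0.15, 0.23 and 0.23 nt had an adjusted p of 0.0325 each over the 15 measures (exact permutation tests). Over 258 annotated arms, each with 50 reads or more in all libraries, they did not pass, with adjusted p of 0.103, 0.103 and 0.0931 (exact permutation tests). With reads of 18 to 26 nt only, the differences were 0.093, 0.19 and 0.13 nt and did not pass over the 15 measures either (exact permutation tests, adjusted p = 0.104, 0.0974 and 0.104). Of those 258 arms 0% passed in either direction, while at an unadjusted p under 0.05 the exact permutation test gave 47 longer and 21 shorter in Keluoxin retina.

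**Figure D4:**
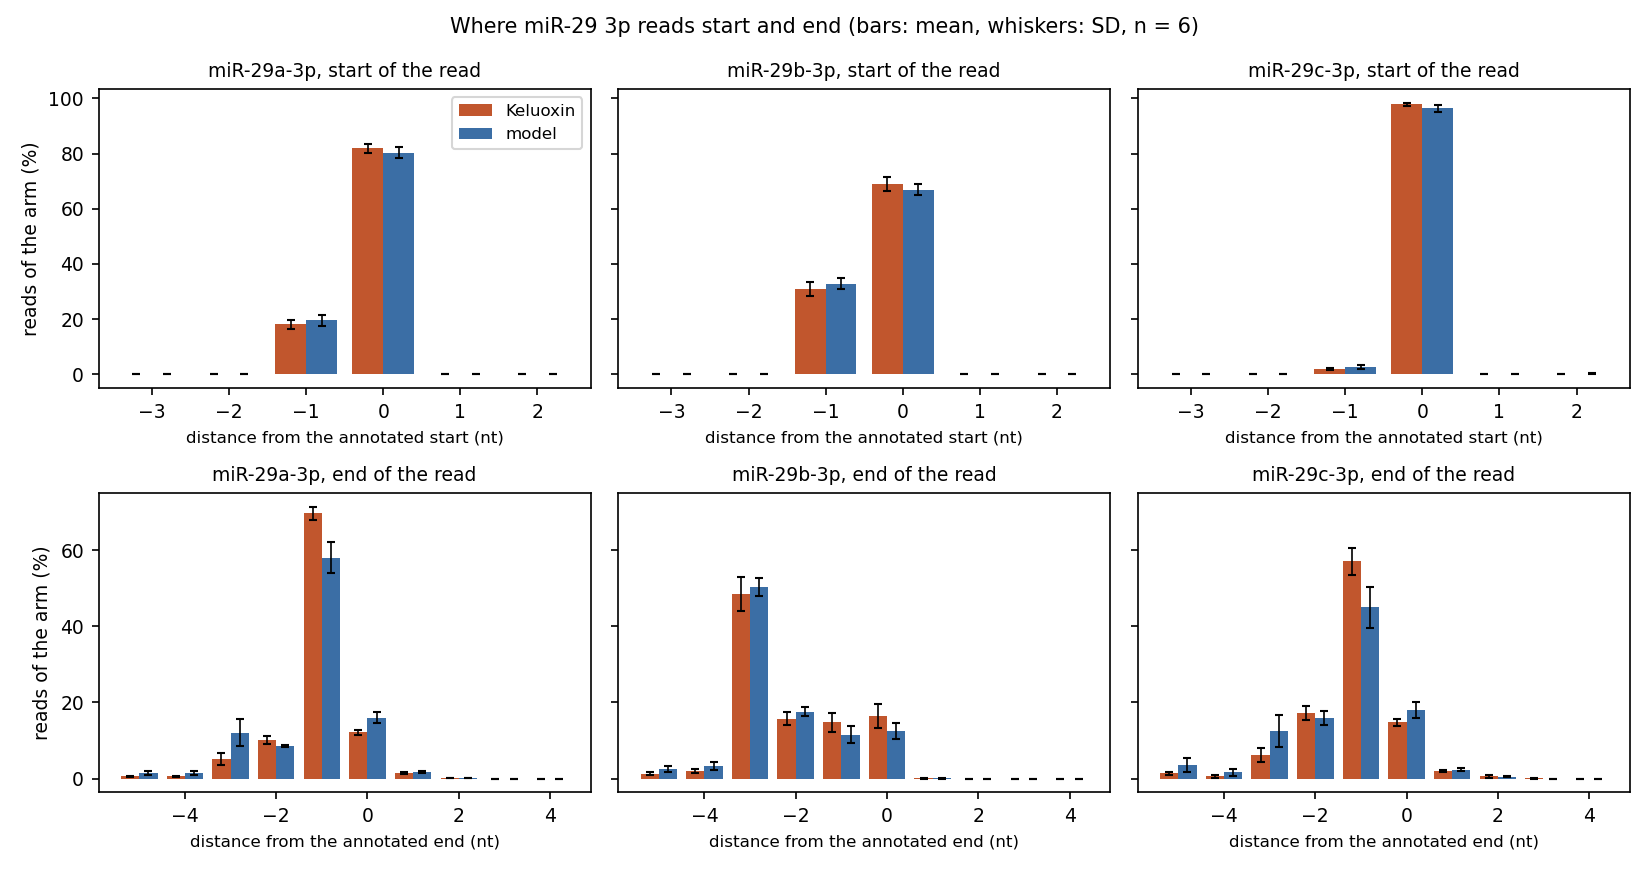
Share of miR-29 3p reads (%) by distance of their start (upper row) and end (lower row) from the annotated position in nt; bars are means of 6 Keluoxin and 6 model libraries and whiskers the SD. Early starts are common in miR-29a-3p and miR-29b-3p and rare in miR-29c-3p. On average Keluoxin reads of miR-29a-3p and miR-29c-3p end more often 1 base before the annotated end and less often at it. For miR-29c-3p the groups overlap in both.

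Fewer reads of the 3p arms matched the precursor exactly in Keluoxin retina. The share of reads without a mismatch ran from 53.4% to 60.7% in Keluoxin and from 62.1% to 67.7% in model libraries for miR-29a-3p, and from 52.8% to 60.4% in Keluoxin and from 60.5% to 64.8% in model libraries for miR-29c-3p. The groups were thus separate for both arms. For miR-29a-3p the mean share was 55.8% ± 2.78 in Keluoxin and 65.6% ± 2.26 in model libraries (difference -9.75 percentage points, exact permutation test, p = 0.002165, the smallest this test can give). For miR-29c-3p it was 54.8% ± 2.89 in Keluoxin and 63.4% ± 1.76 in model libraries (difference -8.61, exact permutation test, p = 0.002165). For miR-29b-3p it was 58.8% ± 2.99 in Keluoxin and 65.6% ± 2.83 in model libraries with an overlap (difference -6.79, exact permutation test, p = 0.00649). Adjusted over 258 annotated arms, p was 0.00548 for miR-29a-3p and miR-29c-3p and 0.0110 for miR-29b-3p (exact permutation tests). The shift was shared by most miRNAs: 76.4% of the 258 arms passed in the same direction, 246 of 258 had a lower share in Keluoxin retina, and the median difference was -7.54. The lower share was thus not particular to miR-29.

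The mismatches sat at the 3′ end. The last base of the read mismatched in 28.7% ± 3.55 of miR-29a-3p reads in Keluoxin and 24.4% ± 1.49 in model libraries, and the base before it in 8.02% ± 1.01 in Keluoxin and 3.46% ± 0.850 in model libraries. miR-29c-3p was alike, with 7.94% ± 1.13 in Keluoxin and 3.46% ± 0.693 in model libraries at the base before the last, and miR-29b-3p had 4.02% ± 0.735 in Keluoxin and 1.84% ± 0.265 in model libraries there. In bases 2 to 8 mismatches were rare, at 2.12% ± 0.861 of miR-29a-3p reads in Keluoxin and 2.41% ± 0.195 in model libraries. Counting exact reads only, miR-29a-3p and miR-29c-3p stood at 0.34 and 0.59 and were still called by edgeR.

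**Figure D5:**
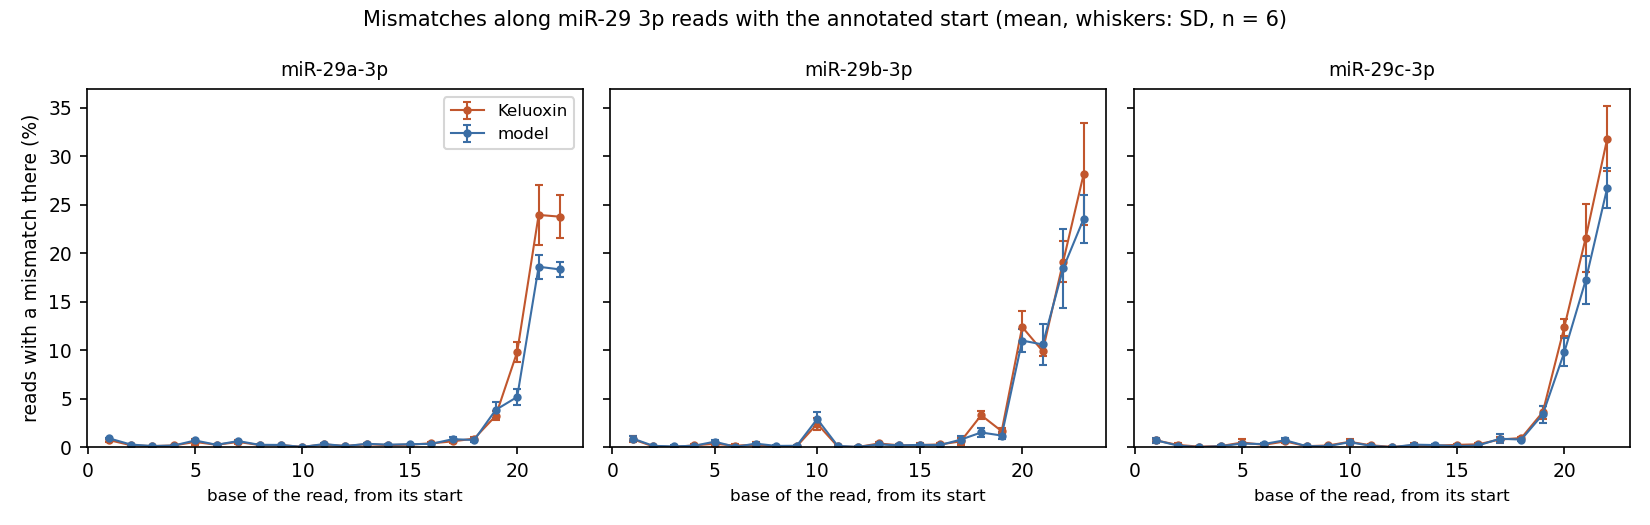
Share of miR-29 3p reads (%) with a mismatch to the precursor at each base, counted from the 5′ end, for reads with the annotated start; points are means of 6 Keluoxin and 6 model libraries and whiskers the SD. The share stays low up to base 17 except at base 10 of miR-29b-3p, and the last bases carry most mismatches.

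miRNAs often studied in matrix and TGF-beta signalling were measured beside miR-29. Of the 33 tested arms of this list, 1 was called higher in Keluoxin retina and 0 lower (edgeR; 3 higher and 3 lower at an unadjusted p under 0.05; DESeq2 called 1 higher and 0 lower). Of all arms 9.25% were called higher and 8.01% lower, and of annotated arms 4.11% and 9.59%. Their median log2 fold change was -0.05, against 0.03 for all arms. The called arm was miR-133b-3p, a muscle miRNA, at 1.69 to 18.8 CPM in Keluoxin (median 3.88) and 0.286 to 2.54 CPM in model libraries (median 1.75), with a log2 fold change of 1.87 (SE 0.59, edgeR adjusted p = 0.0454). Its highest value was in Keluoxin replicate 4, the library with the most muscle miRNAs. No arm of the list was called without any one of Keluoxin replicates 1, 3, 4, 5 or 6 or model replicates 3, 4, 5 or 6. Without model replicate 2 the single call was a lower one, so leaving out almost any library ended this call. The 4 most abundant arms of the list did not pass. miR-26a-5p, which is abundant in many tissues, averaged 37602 ± 3643 CPM in Keluoxin and 33150 ± 2830 CPM in model libraries (log2 fold change 0.18, edgeR adjusted p = 0.145). miR-21a-5p, known to promote fibrosis, averaged 6790 ± 983 CPM in Keluoxin and 7043 ± 519 CPM in model libraries (log2 fold change -0.05, edgeR adjusted p = 0.721). miR-101a-3p averaged 15299 ± 2429 CPM in Keluoxin and 22843 ± 10521 CPM in model libraries (log2 fold change -0.58, edgeR adjusted p = 0.160). miR-30c-5p, which is known to target connective tissue growth factor, averaged 11230 ± 1491 CPM in Keluoxin and 13156 ± 2178 CPM in model libraries (log2 fold change -0.23, edgeR adjusted p = 0.202).

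Across the 12 libraries the members varied together on the 3p side. The Pearson correlation of log2 CPM was 0.892 between miR-29a-3p and miR-29c-3p, 0.795 between miR-29b-3p and miR-29c-3p and 0.706 between miR-29a-3p and miR-29b-3p, whereas miR-29c-3p and miR-29c-5p, from the same hairpin, stood at -0.154. The annotated arms most like miR-29a-3p, of 505 candidates, were miR-181c-5p (0.910), miR-154-3p (0.882), miR-30b-5p (0.875), miR-136-3p (0.811) and miR-490-5p (0.808). Those most like miR-29c-3p were miR-154-3p (0.965), miR-15a-5p (0.928), miR-136-3p (0.914), miR-181c-5p (0.914) and miR-30b-5p (0.911). These correlations are descriptions over libraries of 2 groups that share the scaling and the depth of each library, and they carry no test.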

How the data were processed

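Per the labels' protocols, 1 µg of total RNA went into each NEBNext library, with inserts of 15 to 35 nt. Tools named in the submitters' processing notes are Novoalign, Bowtie, cutadapt and bcl2fastq, with no roles. For the genome build and miRBase release, the entry is: not given in the sources used here. The authors deposited read counts per distinct sequence, not normalized, for sequences of 15 to 51 nt with at least 2 reads. Where a sequence was listed more than once, the count column held its reads divided among those entries. The undivided number stood in the sequence identifier. Other deposited columns (lengths, positions with 5 added, mismatches) have no normalization per the file headers. Undivided reads were counted per arm by the side of the precursor middle, and a read matching several arms was shared equally among them.

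edgeR 4.0.16 (R 4.3.3; TMM, its filter on low counts, quasi-likelihood test, Benjamini-Hochberg) was run on 811 arms, and DESeq2 1.42.0 served as an alternative. Ratios used log2 with 0.5 reads added. Measures per library were compared by two-sided exact permutation tests over 924 assignments (SciPy 1.17.1, NumPy 2.4.6). Adjustment was over 15 measures, or over the annotated features with enough reads in every library. These were 258 arms for read form and 86 precursors for 5p to 3p ratios. On simulated data the edgeR fit recovered 25.8% of arms changed 1.5-fold, 54% of those changed 2-fold and 88.3% of those changed 4-fold. It called 1 unchanged arm. An arm without a call may therefore still differ by folds of the size seen in miR-29. Within each group no 2 libraries were copies (smallest chi-square per degree of freedom 75.6). Pairs across the groups were not checked.

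Members and lists were chosen with earlier results of these data known. Named were all miR-29 arms, the 4 most abundant and the called arms of the matrix list of 35 precursors, the 5 arms most like miR-29a-3p and miR-29c-3p, and the 3 commonest reads of each 3p arm. The hairpins and mature arms matched RefSeq for all 4 precursors; gene overlaps come from GENCODE M21 on GRCm38. Alternatives covered scaling, filter, tool, read choice, replicate block and left-out libraries. Counting error is only part of the spread, since reads carry no molecular identifiers.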

Additional observations from a re-analysis of the deposited data

Results flagged for a closer look

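Of 44 groups of 6 libraries examined for a library far from the others, 3 had one (by the gap to the nearest library over the range of the group); chance gives about 1 in 20 groups. The log2 ratio of miR-29b-2-5p to miR-29b-1-5p was 6.79 in Keluoxin replicate 1, far above the other Keluoxin libraries, with 0 reads of miR-29b-1-5p listed there. The share of miR-29c-3p reads without a mismatch was 60.4% in Keluoxin replicate 4, above the rest of the Keluoxin libraries. The share of miR-29b-3p reads without a mismatch was 60.1% in model replicate 6, below the rest of the model libraries.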

How the results depend on the processing

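Of the 138 alternative values of single miR-29 arms, 109 kept direction and side of the threshold, 18 lost a call and 11 changed sign, and of the 236 for ratios and read form 189 kept both, 44 lost a call and 3 gained one. The count of called miR-29 arms, 2 as reported, was 0 with upper quartile scaling, without the filter and with the covariate (edgeR; 1, 2 and 3 at an unadjusted p under 0.05), and 0 to 2 with a library left out. Over all arms, 140 calls (75 higher, 65 lower) became 236 with DESeq2, 75 with annotated precursors only and 32 with the covariate, and 72 to 244 with a library left out; the split was 72 to 110 with upper quartile scaling and 89 to 26 with total reads. The matrix list had 1 call, but 2 with total reads or annotated precursors only, 0 without the filter, with the covariate or without reads of several arms (edgeR; 9, 3 and 5 at an unadjusted p under 0.05), and 0 to 3 with a library left out. The ratios had 1 pass over the 15 measures, but 0 for exact reads only (exact permutation; 1 unadjusted) and 0 to 2 with a library left out. The read form measures had 6, but 3 for reads of 18 to 26 nt, 0 of the 6 that exist for exact reads only (exact permutation; 4 unadjusted), where the 3 passes lost were those of read length, and 2 to 7 with a library left out. miR-29b-3p changed sign with upper quartile scaling (-0.12). miR-29a-5p, at 0.00, stood at -0.036 with RLE, -0.24 with upper quartile, -0.053 without the filter, -0.029 with DESeq2, -0.35 with the covariate and -0.24 to 0.19 with a library left out. Apart from scaling, whose shift of the median is given above, and settings that drop reads or libraries, the cause was not tested. The covariate and the omission of reads of several arms were chosen after seeing the data. Arms under about 10 CPM are limited by depth.

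Labels number the samples 1 to 6 in each group, but same-numbered libraries correlated at 0.0367 to 0.237 in their deviations, with 2 of the 6 under 0.1, and 1 of the 6 Keluoxin libraries correlated best with its own number. These values do not settle whether the numbers mark pairs, since correlations between differently numbered libraries are not given beside them. The comparisons above did not take the numbers as pairs. With the replicate block, miR-29a-3p stood at 0.32 (edgeR adjusted p = 0.0795) and miR-29c-3p at 0.53 (edgeR adjusted p = 0.0542), so that 0 miR-29 arms were called (2 at an unadjusted p under 0.05), 0 of the matrix list (4), 0 ratios (2) and 0 read form measures (7), against 132 of all arms. The ratio of miR-29c-5p to miR-29c-3p was not among those 2 ratios (exact sign permutation within numbers, p = 0.09375, adjusted p = 0.128). For ratios and read form the smallest p of this test is 0.03125, whose smallest adjusted p here was 0.0521, so no such measure passed.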
